A study of Rattus norvegicus with 6 samples.

Results

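The mitochondrial carriers of the SLC25 family were examined in the renal cortex of rats given carbon tetrachloride. The members were all genes whose symbol is Slc25a followed by a number, apart from Slc25a1 and Slc25a20, and they were found by matching the accession of each array probe to a gene symbol. This gave 38 carriers among the 45433 genes and unmatched accessions that the arrays represent. Each carrier is described by the probe of highest mean signal over the 6 arrays. Per the labels, 3 male Sprague-Dawley rats received corn oil and 3 received carbon tetrachloride at 100 mg/kg/day, both for 4 weeks, and the animals were 5 weeks old at purchase. Carbon tetrachloride is a solvent that becomes toxic when cytochrome P450 enzymes strip off a chlorine and leave a radical. The labels name no genetic modification and no other agent, while the series' design text names benzyl acetate as the treatment; the groups used here are those of the sample labels. RNA was hybridised to 1-colour Agilent arrays, 1 per rat.

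SLC25 carriers are small proteins of the inner mitochondrial membrane, built from repeated pairs of membrane-spanning helices, that swap or carry solutes which cannot cross that membrane alone. Their cargoes include adenine nucleotides, phosphate, dicarboxylates, amino acids, cofactors, glutathione and iron, so the family links the respiratory chain and the matrix enzymes to the cytosol. The proximal tubule, which makes up most of the renal cortex, is packed with mitochondria that fuel sodium-driven reabsorption and feed gluconeogenesis and ammonia formation.

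All values are log2 of the processed spot signal relative to the 75th percentile of signal on the same array, so 0 is that percentile and 1 unit is a factor of 2. They compare arrays for the same probe and say nothing about which of different genes has more transcript. The markers of the labelled tissue gave signal above background on every array of 1 group or of both. This held for all 7 proximal tubule, all 6 loop and distal nephron and all 4 podocyte markers. It also held for all 5 muscle markers, so it cannot by itself bear out the tissue. Between 68.5% and 72.1% of probes per array were well above background, and the arrays correlated with each other at 0.9904 to 0.9937 over the tested probes. The corn oil array of replicate 1 stood apart in 1 respect. Tnp1 and Prm1, which encode packaging proteins of sperm chromatin, were at 1.83 and 1.40 on it, against -7.37 to -5.04 and -3.69 to -3.19 on the other 5 arrays, while the germ cell genes Ddx4 and Sycp3 were well above background on 0 arrays. Of the 9 T cell markers, 8 were lower on every treated array than on every control array (all transcripts 5.28%). The summed level of the 9 was 2.30 to 2.76 times the array's 75th percentile in corn oil. After carbon tetrachloride it was 1.53 to 1.66. Cd3d, the brightest of the 9, weighs most in that sum. None of the 9 passed the adjusted threshold in limma (0 of 9). At an unadjusted p under 0.05 in limma there were 8, beside 6.30% of all tested transcripts. Cd5, Cd2 and Cd3e cleared background on all 3 arrays in corn oil but on 0, 1 and 2 in carbon tetrachloride. These genes were thus tested only through the group where they are high, which favours a fall. The part of the T cell transcripts in the carrier values was not tested. In bulk tissue fewer cells of a type and less RNA per cell cannot be told apart. The changes of the carriers named for their separation are also given without corn oil replicate 1.

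The carriers as a group differed little between the treatments. A gene was tested when its signal cleared background on every array of 1 group or of both, which 34 of the 38 carriers did, and 0 of 34 passed a Benjamini-Hochberg adjusted p of 0.05 in limma, adjusted over all 31190 tested transcripts. Of those transcripts 1 passed (0.00321%), so a count of 0 among 34 genes says little about the family by itself. At an unadjusted p under 0.05 in limma there were 2 carriers, Slc25a43 and Slc25a10, against 6.30% of all tested transcripts. The adjusted p of the carriers ran from 0.748 to 0.998.

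The sizes of the differences carry more information than the calls. The mean was higher after carbon tetrachloride for 21 carriers and lower for 13 (61.8% higher, against 52.3% of all tested transcripts). The median log2 change of the 34 was 0.018, beside 0.0077 over all tested transcripts. The median size of a change, regardless of sign, was 0.068, against 0.095 for all tested transcripts and 0.066 for those brighter than the array's 75th percentile, where 22 of the 34 carriers lie. The 95% interval of the change stayed within a factor of 2 for 32 of the 34 carriers (91.1% of all tested transcripts) and within a factor of 1.5 for 27 (73.0% of all). Of the 22 carriers brighter than the 75th percentile, 22 stayed within a factor of 2 and 19 (86.4%) within 1.5, where all transcripts on that side came to 96.9% and 89.2%. The carriers whose interval reached past a factor of 2 were Slc25a2 and Slc25a18, both dim. Each interval uses 3 arrays a group and the moderated SE of limma, which also draws on the variance of all tested transcripts. The number of arrays limits its precision.

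**Figure D1:**
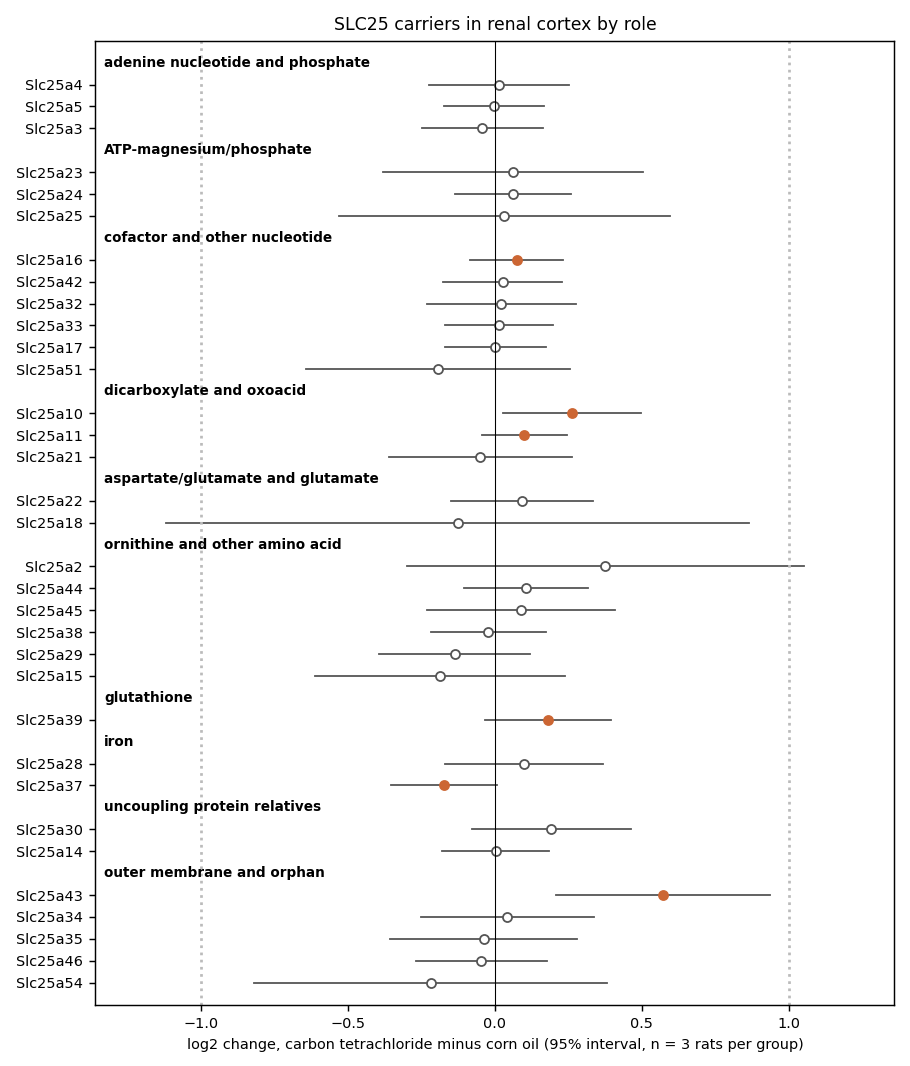
Log2 change of the tested carriers reported by name (carbon tetrachloride minus corn oil, horizontal axis) with its 95% interval from limma, grouped by role, with filled points for the 6 carriers whose groups do not overlap and dotted lines at a factor of 2. Most points lie close to 0, and the intervals of Slc25a43, at 0.57, and Slc25a10, at 0.26, are the ones that leave out 0.

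The 3 treated values lay wholly above or below the 3 control values for 6 carriers, 17.6% of those tested, where the share over all transcripts with a complete set of values was 12.8%. Among these 6 the treated arrays were higher for Slc25a43, Slc25a10, Slc25a39, Slc25a11 and Slc25a16 (all transcripts 7.55%) and lower for Slc25a37 (all transcripts 5.28%). Without corn oil replicate 1 the log2 changes of these carriers were 0.45 for Slc25a43, 0.19 for Slc25a10, 0.17 for Slc25a39, 0.09 for Slc25a11, 0.08 for Slc25a16 and -0.17 for Slc25a37. Slc25a10 has 1 probe, and the groups overlapped on every other tested probe of Slc25a43, Slc25a39, Slc25a11, Slc25a16 and Slc25a37. Each of the 6 carriers is described with the carriers of its own substrate class.

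**Figure D2:**
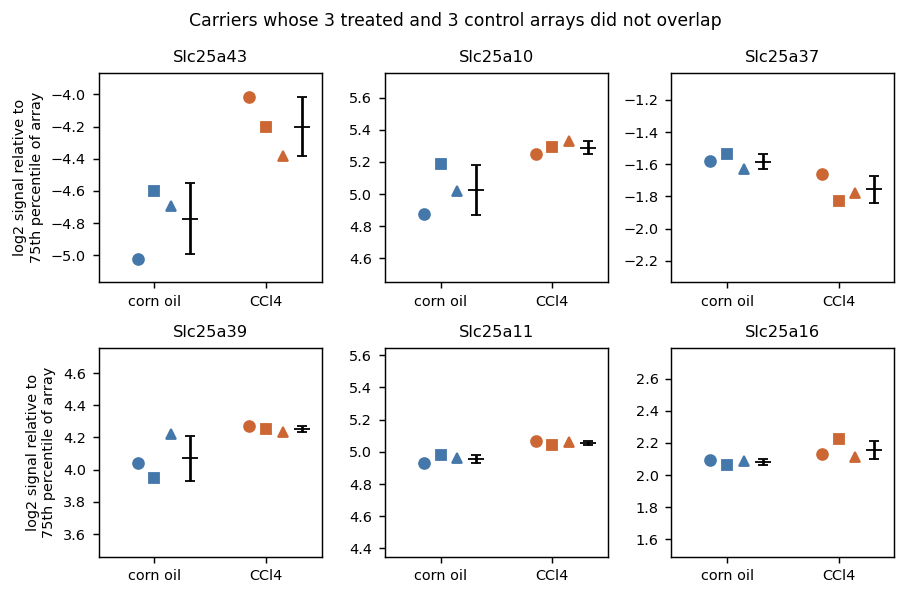
Value on each of the 6 arrays (log2 relative to the array's 75th percentile, vertical axis, 1 panel per gene, circle, square and triangle for replicates 1, 2 and 3; CCl4 is carbon tetrachloride) of the 6 carriers whose groups do not overlap, with the group mean ± SD in black. All panels span the same log2 range, and the means are 0.57 apart for Slc25a43 and 0.07 apart for Slc25a16.

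The carriers that serve oxidative phosphorylation itself differed little between the groups. Slc25a3 brings inorganic phosphate into the matrix, and Slc25a4 and Slc25a5 exchange ADP for ATP. Slc25a3 read 7.12, 7.08 and 6.97 in corn oil and 6.98, 6.93 and 7.13 in carbon tetrachloride. The log2 change was -0.04 ± 0.08 (moderated SE from limma here and below, n = 3 and 3, limma adjusted p = 0.935). For Slc25a4 the control values were 5.57, 5.58 and 5.53 and the treated values 5.58, 5.41 and 5.73, a change of 0.01 ± 0.10 (limma adjusted p = 0.989). Both genes overlapped between the groups, and of the treated arrays of Slc25a4 1 lay above, 1 within and 1 below its tightly grouped controls. The change of Slc25a5 had a 95% interval of -0.17 to 0.17 on the log2 scale which is a factor of 0.886 to 1.12. A second probe of Slc25a3 was lower on every treated array, with a log2 change of -0.11 ± 0.07.

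The promoters of Slc25a3 and Slc25a4 are shown because both hold the core of an ETS site, the element bound by GABPA, a regulator of genes for respiratory chain proteins. RefSeq promoter windows (GRCr8, 250 bases before to 50 after the start of each gene) were at hand for 33 of the 38 carriers. The letters CCGGAAG, searched on both strands, occurred in the windows of 6 of these 33 (18.2%), namely Slc25a3, Slc25a4, Slc25a14, Slc25a17, Slc25a38 and Slc25a54, against 8.75% of all 33469 promoters. The printed window of Slc25a3 lies at chr7:27506710-27506796 on the minus strand and that of Slc25a4 at chr16:52805320-52805406 on the plus strand, with the matched letters in capitals.
Slc25a3: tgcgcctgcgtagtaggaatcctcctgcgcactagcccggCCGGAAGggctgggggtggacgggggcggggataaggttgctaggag
Slc25a4: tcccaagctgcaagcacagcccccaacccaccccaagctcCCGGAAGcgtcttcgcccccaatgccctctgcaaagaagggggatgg
A match describes letters in a window and is not a measured binding site. The level of Gabpa itself differed by 0.02 ± 0.06 between the groups. Of the other motifs searched on both strands, the palindromic NRF1 element was in 1 carrier window, that of Slc25a51 (4.25% of all promoters), and the ESRRA element TCAAGGTCA in 0 (0.433% of all).

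The ATP-magnesium/phosphate carriers set the size of the adenine nucleotide pool in the matrix, under control of calcium. Slc25a24 was at -0.32, -0.35 and -0.38 in corn oil and at -0.42, -0.19 and -0.27 in carbon tetrachloride (change 0.06 ± 0.08, limma adjusted p = 0.900). Slc25a23 was at -1.66, -1.60 and -1.87 against -1.34, -2.00 and -1.60 (change 0.06 ± 0.18, limma adjusted p = 0.960). The groups overlapped in both, and the treated arrays of Slc25a23 held both its highest and its lowest value. The third tested member, Slc25a25, varied from rat to rat within both groups. Its values were 5.81, 6.35 and 5.84 in corn oil and 6.44, 5.89 and 5.77 in carbon tetrachloride, a log2 change of 0.03 ± 0.23, and 1 rat of each group stood above the other 2 of its group. The second probe of Slc25a25 read -1.41, -0.69 and -1.24 and then -0.75, -1.23 and -1.43, high on the same arrays.

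The window around the CREB element is shown for Slc25a25 and for Slc25a33, a pyrimidine nucleotide carrier, since they are the carriers that hold it. The letters TGACGTCA, the full cyclic AMP response element, were found in 2 of the 33 carrier windows (6.06%) and in 1.83% of all promoters. The Slc25a25 window lies at chr3:36116692-36116779 and the Slc25a33 window at chr5:165503010-165503097, both GRCr8 and minus strand, with the element in capitals.
Slc25a25: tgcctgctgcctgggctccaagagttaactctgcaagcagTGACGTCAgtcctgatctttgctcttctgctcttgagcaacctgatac
Slc25a33: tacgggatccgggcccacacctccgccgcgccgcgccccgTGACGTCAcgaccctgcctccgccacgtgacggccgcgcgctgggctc
The same element stands in both windows. On the chosen probes Slc25a33 lay between -0.35 and -0.18 on all 6 arrays, a range of 1.12-fold, while Slc25a25 ranged over 1.6-fold. The other tested probes of Slc25a33 varied more, from -1.54 to -1.15 and from -2.09 to -1.73. The second probe of Slc25a25 ran from -1.43 to -0.69. The part of the element in these values was not tested.

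Spread between rats of the same group was the widest for a few carriers, which were singled out after their values were seen. Among transcripts on the same side of the array's 75th percentile, the residual SD of Slc25a18 was at the 95th percentile, that of Slc25a25 at 94.5, of Slc25a51 at 91 and of Slc25a15 at 90, and 0 carriers lay above the 95th. Slc25a11 lay at the other end, at 0.75. Of the 34 tested carriers 18 lay above the median of spread, so wide spread was not a trait of the family. The median residual SD was 0.101 for the 22 bright carriers and 0.0914 for all bright transcripts, and 0.171 for the 12 dim carriers and 0.185 for all dim transcripts. Slc25a51, which brings NAD+ into the matrix, was at 3.98, 3.77 and 3.91 in corn oil and 3.79, 3.30 and 3.98 in carbon tetrachloride (change -0.19 ± 0.18, limma adjusted p = 0.862). Slc25a15, the ornithine carrier of the urea cycle, was at 1.88, 1.69 and 1.74 and then 1.49, 1.31 and 1.95 (change -0.19 ± 0.17). Carbon tetrachloride replicate 2 was the lowest array for both, and carbon tetrachloride replicate 3 the highest. A second, dim probe of Slc25a15 gave -0.53 ± 0.32 and was also lowest on carbon tetrachloride replicate 2. Carbon tetrachloride replicate 3 is the array with a slide and a scan of its own, and within the slide that holds both groups the changes were -0.37 for Slc25a15 and -0.34 for Slc25a51. Without carbon tetrachloride replicate 2 they were -0.050 and 0.0016.

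**Figure D3:**
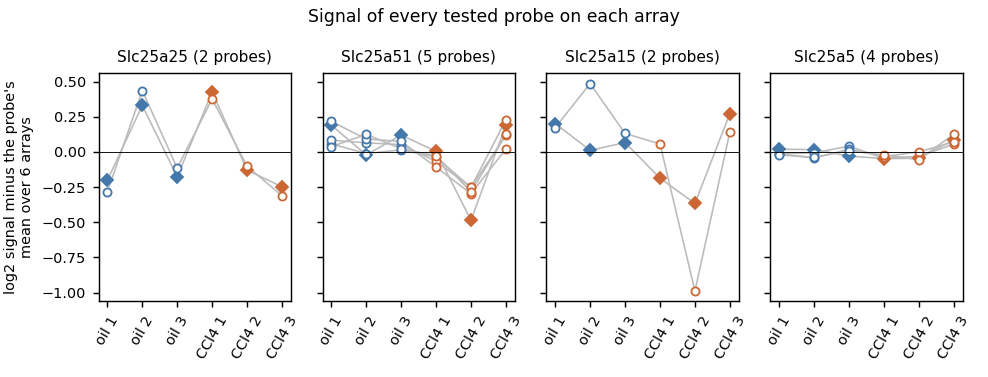
Log2 signal of every tested probe minus that probe's mean over the 6 arrays, for Slc25a25, Slc25a51 and Slc25a15 and, for contrast, Slc25a5, with a filled diamond for the probe that represents the gene, open circles for the others and a grey line joining the values of 1 probe. Both probes of Slc25a25 are highest on corn oil replicate 2 and carbon tetrachloride replicate 1, all probes of Slc25a51 and Slc25a15 are lowest on carbon tetrachloride replicate 2, and the 4 probes of Slc25a5 stay close to 0.

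Carriers of cofactors and other nucleotides came to 7 tested genes, of which 5 had a higher mean after carbon tetrachloride and 2 a lower one, and 0 passed the adjusted threshold. Slc25a16, linked to coenzyme A in the matrix, was the one with separate groups. Its values were 2.09, 2.06 and 2.09 in corn oil and 2.13, 2.22 and 2.11 in carbon tetrachloride, a log2 change of 0.07 ± 0.06 (95% interval -0.08 to 0.23; limma adjusted p = 0.853). The gap between the groups was small, and its other probes gave -0.04 and 0.06, so the probes differ in direction. Slc25a42, which carries coenzyme A, Slc25a17, a peroxisomal carrier of coenzyme A, FAD and NAD+, Slc25a32, linked to folate and FAD, and Slc25a33 differed by 0.0017 to 0.03.

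Of the 3 dicarboxylate and oxoacid carriers, 2 had treated values wholly above the controls (7.55% of all transcripts did). With 3 genes this says little about the class, and Slc25a10 rests on 1 probe. Slc25a10 exchanges malate or succinate for phosphate and, with Slc25a11, the oxoglutarate carrier of the malate-aspartate shuttle, has been linked to glutathione uptake into kidney mitochondria. Slc25a10 was at 4.87, 5.19 and 5.02 in corn oil and at 5.25, 5.29 and 5.33 in carbon tetrachloride. All 3 treated values were above all 3 control values, and corn oil replicate 1 was the lowest array. The log2 change was 0.26 ± 0.10 (95% interval 0.03 to 0.50, a factor of 1.02 to 1.41; limma unadjusted p = 0.0344, adjusted p = 0.778). The limma unadjusted p of Slc25a10 moved with the setting. It was 0.0621 with median scaling, 0.0865 within slide 1 and 0.0169 with normexp and the 75th percentile. Leaving out 1 array at a time, its change ran from 0.19 to 0.34. For Slc25a11 the control values were 4.93, 4.98 and 4.96 and the treated values 5.07, 5.04 and 5.06. The change was 0.10 ± 0.06 (limma adjusted p = 0.827). The groups did not overlap and each was tight, whereas a second probe of Slc25a11 overlapped between the groups and gave 0.05 ± 0.08. Slc25a21, the carrier of oxoadipate, was at -2.84 to -3.03 in corn oil and -2.75 to -3.13 in carbon tetrachloride, with a change of -0.05 ± 0.13.

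The glutamate carriers Slc25a22 and Slc25a18 were on the array, and the aspartate/glutamate exchangers Slc25a12 and Slc25a13 had no probe matched to them. Slc25a22 was at 1.25, 1.44 and 1.52 in corn oil and 1.42, 1.60 and 1.46 in carbon tetrachloride (change 0.09 ± 0.10, limma adjusted p = 0.878). Slc25a18 was at -4.97, -5.49 and -4.99 against -4.92, -6.18 and -4.72 (change -0.13 ± 0.40, limma adjusted p = 0.964), and its signal cleared background on 2 of the 3 arrays after treatment. Both overlapped, and the interval of Slc25a18, from -1.12 to 0.87, reached past a factor of 2 on the lower side.

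Of the carriers of ornithine and other amino acids 6 were tested, 3 with a higher and 3 with a lower mean. Slc25a2, an ornithine carrier, was at -5.11, -5.08 and -4.98 in corn oil and -4.06, -4.83 and -5.16 in carbon tetrachloride (change 0.38 ± 0.28, limma adjusted p = 0.836). The treated arrays ranged from above to below the controls, and the change was 0.06 without carbon tetrachloride replicate 1, 0.61 without carbon tetrachloride replicate 3 and 0.15 with the normexp background correction. Slc25a29, which carries basic amino acids, was at -0.80, -0.65 and -0.49 against -0.82, -0.86 and -0.67 (change -0.14 ± 0.10, limma adjusted p = 0.841). Its groups overlapped, with both probes lower on average after treatment. Slc25a38, the glycine carrier needed for haem synthesis, Slc25a44, a carrier of branched-chain amino acids, and Slc25a45 differed by -0.02, 0.11 and 0.09.

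Slc25a39, which supplies mitochondria with glutathione, read 4.04, 3.95 and 4.22 in corn oil and 4.27, 4.25 and 4.23 in carbon tetrachloride. The treated arrays were all above the controls, though corn oil replicate 3 came close to them, and they varied little among themselves. The log2 change was 0.18 ± 0.09 (95% interval -0.03 to 0.40; limma unadjusted p = 0.0848, adjusted p = 0.798), and the second probe gave 0.13 ± 0.08. On the second probe the groups overlapped. Slc25a40, the relative of Slc25a39, had no matched probe.

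The mitoferrins bring iron into mitochondria for haem and iron-sulfur clusters. Slc25a37, the form known from red cell precursors, was at -1.58, -1.54 and -1.63 in corn oil and -1.66, -1.83 and -1.78 in carbon tetrachloride. Every treated array was below every control array on the chosen probe, while the groups overlapped on the second probe. The log2 change was -0.17 ± 0.07 (95% interval -0.35 to 0.01; limma unadjusted p = 0.0572, adjusted p = 0.794), with -0.12 ± 0.12 from its second probe. Of the 7 erythroid markers tested, 0 differed between the groups without overlap. Their summed level came mostly from Hba-a1 and Hbb, the brightest of the 7. It was 466 to 657 times the array's 75th percentile in corn oil and 363 to 730 in carbon tetrachloride. It was lowest on carbon tetrachloride replicate 2, which was also the lowest array of Slc25a37. On carbon tetrachloride replicates 1 and 3 it was 730 and 618, and Slc25a37 lay below every control array there too. On corn oil replicate 1 it was 466. The part of these markers in the Slc25a37 values was not tested. The broadly expressed mitoferrin Slc25a28 was at 3.87, 3.67 and 3.82 against 4.04, 3.91 and 3.71 (change 0.10 ± 0.11, limma adjusted p = 0.881), overlapping between the groups on all 3 of its probes.

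Among the relatives of the uncoupling proteins, Slc25a30 was at 3.03, 3.08 and 3.12 in corn oil and 3.09, 3.47 and 3.25 in carbon tetrachloride (change 0.19 ± 0.11, limma unadjusted p = 0.132, adjusted p = 0.825). Carbon tetrachloride replicate 1 lay within the control values and the other treated arrays above them. Its second probe gave 0.33 ± 0.20. Slc25a14 was at 0.43, 0.48 and 0.44 against 0.48, 0.53 and 0.35, a change of 0.0028 ± 0.07 (limma adjusted p = 0.996).

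The last class holds Slc25a46, an outer membrane protein of mitochondrial dynamics, and carriers whose cargo is poorly known. Slc25a43 had the largest change and the smallest p of all 34 tested carriers, on a dim probe. Its values were -5.02, -4.60 and -4.69 in corn oil and -4.01, -4.20 and -4.38 in carbon tetrachloride. All treated arrays were above all control arrays, and corn oil replicate 1 was again the lowest. The log2 change was 0.57 ± 0.15, a factor of 1.49 with a 95% interval of 1.15 to 1.91 (limma unadjusted p = 0.0087, adjusted p = 0.748). Its other probe, of about the same signal, read -4.98, -4.66 and -4.65 and then -4.29, -4.90 and -5.46, and gave -0.12 ± 0.30. The probes thus differed in direction, and with the mean of both the change was 0.23. With the normexp background correction the chosen probe gave 0.34, or 0.32 after quantile normalization. Slc25a54 was at -3.56, -3.91 and -3.95 against -4.55, -3.77 and -3.76 (change -0.22 ± 0.25, limma adjusted p = 0.882), and carbon tetrachloride replicate 1 alone lay outside the control values on the low side. Slc25a34, Slc25a35 and Slc25a46 differed by 0.04, -0.04 and -0.05.

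The arrays hold 80 probes for the 38 carriers, of which 69 were tested, and 24 carriers had more than 1 tested probe. The probes of a gene differed in the direction of the change for 9 of these 24, among them Slc25a4, Slc25a5, Slc25a14, Slc25a16, Slc25a25, Slc25a32, Slc25a43 and Slc25a46. Fitted probe by probe, 0 of the 69 passed the adjusted threshold in limma (0.00236% of all 42400 tested probes did). At an unadjusted p under 0.05 in limma there were 3, beside 6.30% of all tested transcripts when a gene has 1 probe. The third of these, beside the chosen probes of Slc25a43 and Slc25a10, was a probe of Slc25a51 that was lower on every treated array, with a change of -0.26 ± 0.10. All 5 probes of Slc25a51 had a lower mean after carbon tetrachloride and were lowest on carbon tetrachloride replicate 2, with changes from -0.26 to -0.04.

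**Figure D4:**
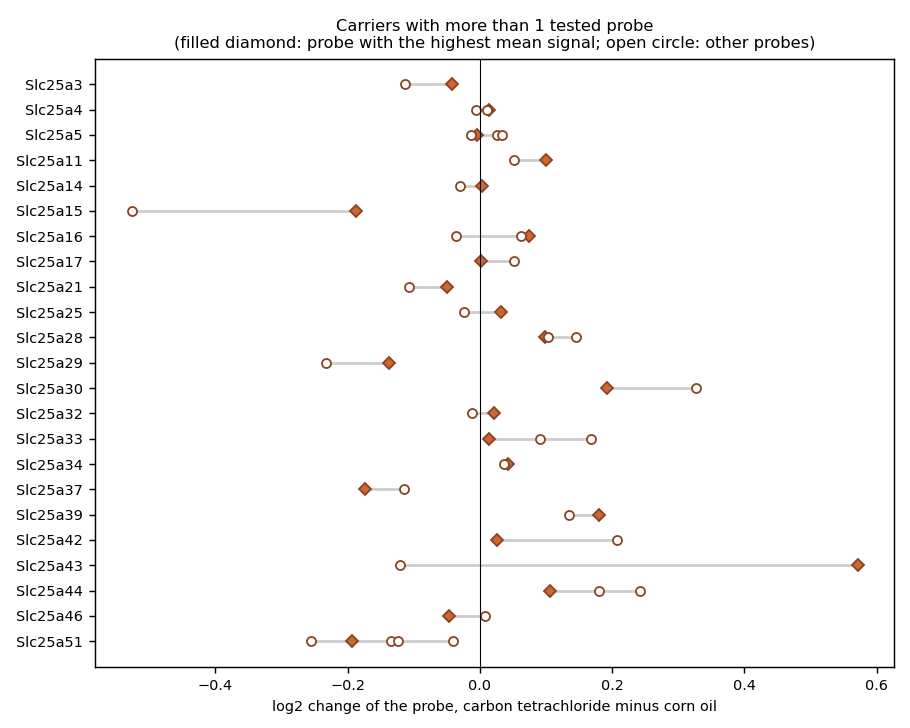
Log2 change of every tested probe (carbon tetrachloride minus corn oil) of the named carriers with more than 1 tested probe, with a filled diamond for the probe that represents the gene, open circles for its other probes and a grey line joining them. The probes of Slc25a43 lie on opposite sides of 0, at 0.57 and -0.12, and the 5 probes of Slc25a51 all lie below it.

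Of the 38 carriers 4 were not tested. Slc25a27, a relative of the uncoupling proteins best known from brain, and Slc25a47, best known from liver, were well above background on 2 of the 3 arrays in each group. Slc25a41, an ATP-magnesium/phosphate carrier, and Slc25a53 were well above background on 0 arrays. Of the 49 Slc25a symbols in the reference table, 9 had no matched probe, among them Slc25a6, Slc25a26, Slc25a31, Slc25a36, Slc25a48 and Slc25a52.

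Genes that work with the carriers also differed little between the groups. Lists of other carriers of the superfamily, other mitochondrial transporters, the import machinery for carriers, enzymes fed by carriers and regulators of mitochondrial biogenesis hold 58 genes, of which 51 were tested, 26 with a higher and 25 with a lower mean after carbon tetrachloride. In limma 0 of the 51 passed the adjusted threshold and 2 had an unadjusted p under 0.05 (6.30% of all tested transcripts did). The median log2 change of the 51 was 0.00084. The groups did not overlap for 5 of the 51 (9.80%, beside the 12.8% of all transcripts).

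Ppargc1b, a coactivator of mitochondrial genes, was at 0.38, 0.25 and 0.60 in corn oil and 0.89, 0.70 and 0.77 in carbon tetrachloride, a change of 0.38 ± 0.11 (limma unadjusted p = 0.0145, adjusted p = 0.763). Every treated array was above every control array. Nrf1, the transcription factor of the NRF1 element, gave 0.16 ± 0.08, and Ucp2, an uncoupling protein homologue, gave 0.34 ± 0.14 with overlapping groups (limma unadjusted p = 0.0483, adjusted p = 0.791). The citrate carrier Slc25a1 gave 0.13 ± 0.08. The genes named here all rose, but their lists did not. Of the 8 tested regulators of mitochondrial biogenesis 5 had a higher and 3 a lower mean, with a median log2 change of 0.011. Of the 6 tested other carriers of the superfamily 2 had a higher and 4 a lower mean, with a median of -0.064.

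On the import side Tomm70, the outer membrane receptor for carrier precursors, was at 2.95, 2.97 and 3.03 against 2.82, 2.91 and 2.76. All treated arrays were below the controls, with a change of -0.15 ± 0.07 (limma adjusted p = 0.798). Tomm22, the central receptor of the same complex, gave -0.13 ± 0.08. Mdh1, the cytosolic malate dehydrogenase of the malate-aspartate shuttle, was also lower without overlap, with a change of -0.14 ± 0.07. Its partner Got1, the cytosolic aspartate aminotransferase, gave -0.12 ± 0.09. The enzymes fed by carriers as a list did not fall, since 10 of the 14 tested had a higher mean after carbon tetrachloride and 4 a lower one. The outer membrane channel Vdac3 gave -0.12 ± 0.07, and Abcb10, an inner membrane transporter linked to haem synthesis, gave 0.17 ± 0.12.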

How the data were processed

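Each of 6 rats gave 1 sample of renal cortex RNA, which was Cy3-labelled for a 1-colour array. The deposited scanner files hold spot intensity on a linear scale, background-subtracted, from Agilent Feature Extraction 10.7.1.1 per the file headers (10.7 per the submitters' processing notes). The authors' deposited value table is linear intensity too: in each column the scanner's processed signal had been divided by a constant, 1015 to 1092 across arrays and close to the 75th percentile, with column medians of 0.118, 0.111 and 0.114 (corn oil) and 0.116, 0.115 and 0.111 (carbon tetrachloride), so scale, centring and direction are known. It has 0 columns of other samples.

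From these files the processed signal was put on the log2 scale and set relative to the array's 75th percentile, without the 1439 control spots and outlier spots. No carrier spot was marked as outlier or saturated (0 of each). Tested were the 42400 of 61537 probes that Feature Extraction marks as well above background on each array of 1 group or of both. Accessions were matched to RefSeq symbols (GRCr8, 45.8% of probes), and a gene is represented by its brightest probe. The comparison used limma 3.58.1 (R 4.3.3), two-sided, with Benjamini-Hochberg adjustment over all tested transcripts and a threshold of 0.05. The code was tested on simulated data. The replicates are separate animals per the labels. The p-values rest on the differences among them, moderated by limma with the variance of all tested transcripts.

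The members, lists and tests were chosen with earlier results of these data known. Values on every array are given for carriers whose groups do not overlap, those with an unadjusted p under 0.05 and up to 2 of each role with the smallest p; of each partner list up to 2 genes are named. Slide 1 (scan 1) holds all arrays but carbon tetrachloride replicate 3, which is on slide 2 (scan 2) by itself. The alternatives were other background corrections, scalings, filters and probe rules, the deposited table, a variance trend, replicate and slide blocks, and leaving out each array. No mean signal column was found, so normexp (offset 50) used the median spot signal. Protein sequences were not used here. The results of 1 tested carrier are not reported here, although it is part of the counts.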

Additional observations from a re-analysis of the deposited data

How the results depend on the processing

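Of the 18 alternatives 16 are distinct, since blocking on slide, using slide 1 alone and dropping carbon tetrachloride replicate 3 amount to 1 model. Under all of them 0 carriers and 0 partner genes passed the adjusted threshold in limma, with 1 to 3 carriers at an unadjusted p under 0.05 and a smallest adjusted p of 0.600. The median carrier change stayed between 0.0060 and 0.038. Of the 33 carriers followed by name, 15 kept 1 direction under every alternative. The count of transcripts past the threshold, 1 in all, was 0 with normexp under either normalization, without a filter, with the filter on all 6 arrays, with trend and robust fitting, with the slide block and within slide 1, and 0 to 2 when 1 array was left out (2 without corn oil replicate 3, and 0 when the array left out was corn oil replicate 1 or either of carbon tetrachloride replicates 2 and 3). A replicate block also gave 0, and no carrier or partner call changed. Arrays of the same number correlated at -0.0195, -0.0908 and -0.0823 in their deviations. Arrays of different numbers were not compared in this way, so these values do not settle whether the numbers pair the samples. Changes near 0 turned sign: within slide 1 or with the slide block, Slc25a4 was -0.065, Slc25a17 -0.022, Slc25a21 0.014 and Slc25a34 -0.069. With normexp and the 75th percentile, Slc25a14 was -0.0077, Slc25a17 -0.033, Slc25a18 0.079 and Slc25a25 -0.0062. With normexp and quantile normalization, Slc25a17 was -0.028 and Slc25a18 0.053. Slc25a5 was 0.00093 with median scaling and 0.010 with the mean of its probes, which gave -0.013 for Slc25a14. Leaving out 1 array at a time, the lowest and highest changes of the carriers that turned sign were Slc25a4 -0.065 to 0.10, Slc25a5 -0.049 to 0.018, Slc25a14 -0.037 to 0.055, Slc25a17 -0.022 to 0.037, Slc25a18 -0.40 to 0.33, Slc25a21 -0.17 to 0.014, Slc25a23 -0.089 to 0.24, Slc25a25 -0.17 to 0.21, Slc25a32 -0.045 to 0.094, Slc25a33 -0.027 to 0.048, Slc25a34 -0.069 to 0.11, Slc25a35 -0.11 to 0.088, Slc25a38 -0.066 to 0.024, Slc25a42 -0.017 to 0.078, Slc25a45 -0.019 to 0.18, Slc25a46 -0.089 to 0.039, Slc25a51 -0.34 to 0.0016, Slc25a54 -0.35 to 0.045. Of the 15 carriers that kept their sign, 11 moved by over 1.5 times: Slc25a2 0.064 to 0.61, Slc25a3 -0.10 to -0.0026, Slc25a15 -0.37 to -0.050, Slc25a16 0.041 to 0.10, Slc25a22 0.014 to 0.15, Slc25a24 0.011 to 0.12, Slc25a28 0.022 to 0.19, Slc25a29 -0.21 to -0.060, Slc25a30 0.092 to 0.28, Slc25a39 0.12 to 0.26 and Slc25a44 0.038 to 0.17. The cause was not tested. Dim probes such as those of Slc25a18, Slc25a2 and Slc25a43 limit what can be seen.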
